A study of Homo sapiens with 8 samples.

Results

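The mRNAs of 10 selenoprotein genes were followed here, in level and in ribosome occupancy, in human cells with and without the exonuclease XRN1. They are GPX1, GPX4, SEPW1 (now SELENOW), SELT (SELENOT), SELK (SELENOK), SEP15 (SELENOF), SEPHS2, TXNRD1, TXNRD2 and MSRB1, taken by gene symbol, and all 10 had a row among the 10105 genes of the count table. The cells were HEK293T, an established line derived from human embryonic kidney. Wild-type (WT) cells were compared with an XRN1-null line made from them with CRISPR/Cas9, so both groups share the HEK293T background, and whether the null line is 1 clone is not given in the sources used here. Each genotype was grown untreated as 2 biological replicates and measured by RNA-Seq, which here read polyadenylated mRNA, and by Ribo-Seq, which reads the ribosome-protected fragments (RPFs) left after nuclease digestion. That gave 8 libraries, with 2 in each combination of genotype and assay.

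Selenoproteins contain selenocysteine, the selenium analogue of cysteine, which usually sits at the catalytic site of enzymes that handle peroxides and disulphides. Selenocysteine has no codon of its own. It is read from UGA, normally a stop codon, when a stem-loop in the 3′ UTR of the mRNA recruits the proteins that deliver its tRNA. If the UGA is read as a stop, translation ends early, and a stop lying well upstream of an exon junction can expose the mRNA to nonsense-mediated decay. XRN1 is the main cytoplasmic 5′-to-3′ exonuclease and degrades mRNAs once their cap has been removed or once they have been cut internally.

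The place of the recoded UGA differs among the 10 mRNAs, and the stretch around it is shown because it is the feature that all of them share. Each line gives spliced coding sequence 5′ to 3′, from 12 bases before the codon to at most 15 after it, ending at the annotated stop codon where that comes sooner. The selenocysteine codon is in capitals and is written as DNA, TGA. The sequences were read from GENCODE 44 transcripts on GRCh37, the build of the count table (hg19).
GPX1: gtggcgtccctcTGAggcaccacggtccgg
GPX4: gtggcctcccagTGAggcaagaccgaagta
SEPW1: tattgtggcgctTGAggctacaagtccaag
SELT: atttgtgtttccTGAggttataggcgggtg
SELK: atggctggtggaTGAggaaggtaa
SEP15: gaagtttgtggaTGAaaattgggaaggttc
SEPHS2: ggcatgaagggcTGAggctgcaaggtcccg
TXNRD1: caggctggctgcTGAggttaa
TXNRD2: gtgacaggctgcTGAgggtaa
MSRB1: cagtcccgattcTGAatattcagcagctcg

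In the thioredoxin reductases TXNRD1 and TXNRD2 and in SELK the codon stands next to the end of the reading frame, so their lines stop short. In SEPHS2, SEPW1, GPX1, SELT and GPX4 it falls before the middle of the frame. As a share of the frame, the earliest was that of SEPHS2, codon 60 of 448 (13.4%). The latest were those of TXNRD1 (codon 648 of 649) and TXNRD2 (codon 523 of 524), both at 99.8%. SEPHS2 is encoded in 1 exon and so has no junction downstream of its UGA. TXNRD1 has its UGA in the last of 17 exons, and the other 8 genes have at least 1 junction downstream of it.

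RNA-Seq libraries held 33757487 to 38145433 counts over the table and Ribo-Seq libraries 1921641 to 4399542, the lowest being WT replicate 1, so RPF values rest on fewer counts. Levels are given as CPM, the usual unit of read counts relative to the library total, scaled by the TMM method within each assay. XRN1 RPFs were lower in both null libraries (22.6 and 18.4 CPM) than in WT (34.4 and 49.8 CPM), whereas XRN1 mRNA was higher, at 281.6 and 252.6 CPM against 33.5 and 33.0 CPM in WT. The count table does not show which part of the XRN1 transcript the reads cover, so the mRNA value does not check the knockout. Of the markers chosen for HEK293T cells, VIM, KRT8, KRT18, CDH2 and NEFM, all 5 were detected, with KRT18 mRNA called higher (log2 fold change 0.49, edgeR FDR 0.0013), NEFM called lower (-0.59, FDR 0.00455) and the other 3 not called. Of 4 markers of other cells, PTPRC (leukocytes), ALB (hepatocytes) and PECAM1 (endothelium) had no row, and the fibroblast collagen COL1A1 had mean mRNA levels of 14.6 CPM in WT and 37.1 CPM in null cells and was called higher (1.34, FDR 1.7e-05). The part of these marker changes in the results was not tested. In bulk libraries, fewer cells expressing a gene and less RNA per cell cannot be told apart.

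The mRNAs of 6 of the 10 genes were lower and that of 1 was higher in XRN1-null cells. SEPHS2, MSRB1, GPX4, SEP15, SELK and GPX1 fell, TXNRD2 rose, and SEPW1, SELT and TXNRD1 did not pass the test, edgeR's quasi-likelihood test at a Benjamini-Hochberg false discovery rate (FDR) of 0.005 over all genes. For comparison, 23.2% of all genes tested were lower and 22.9% higher by the same rule, and 46.1% were called in either direction, where 7 of 10 members were. The median log2 fold change was -0.37 over the members and -0.01 over all genes. The WT and null RNA-Seq values did not overlap for 9 of 10 members, 7 with the null libraries lower and 2 with them higher, as against 43.7% and 41% of all genes. For the 4 smaller decreases the call, though not the direction, depended on having both null libraries. Without XRN1-null replicate 1 the calls of GPX1, SEP15 and SELK were lost (FDR 0.0373, 0.00792 and 0.00673), and without XRN1-null replicate 2 those of GPX1, SELK, SEP15 and GPX4 (FDR 0.0641, 0.0338, 0.00883 and 0.0073). Over all fits that left out 1 library the log2 fold changes were -0.37 to -0.32 for GPX1, -0.64 to -0.47 for GPX4, -0.64 to -0.41 for SEP15 and -0.47 to -0.34 for SELK. Lower calls over all genes went from 2344 to 1113 without XRN1-null replicate 1 and to 1097 without replicate 2. Where 1 library of a genotype is left, its spread is assumed to be that of the other genotype's pair. SEPHS2, MSRB1 and TXNRD2 kept theirs in each of 12 alternative fits.

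**Figure D1:**
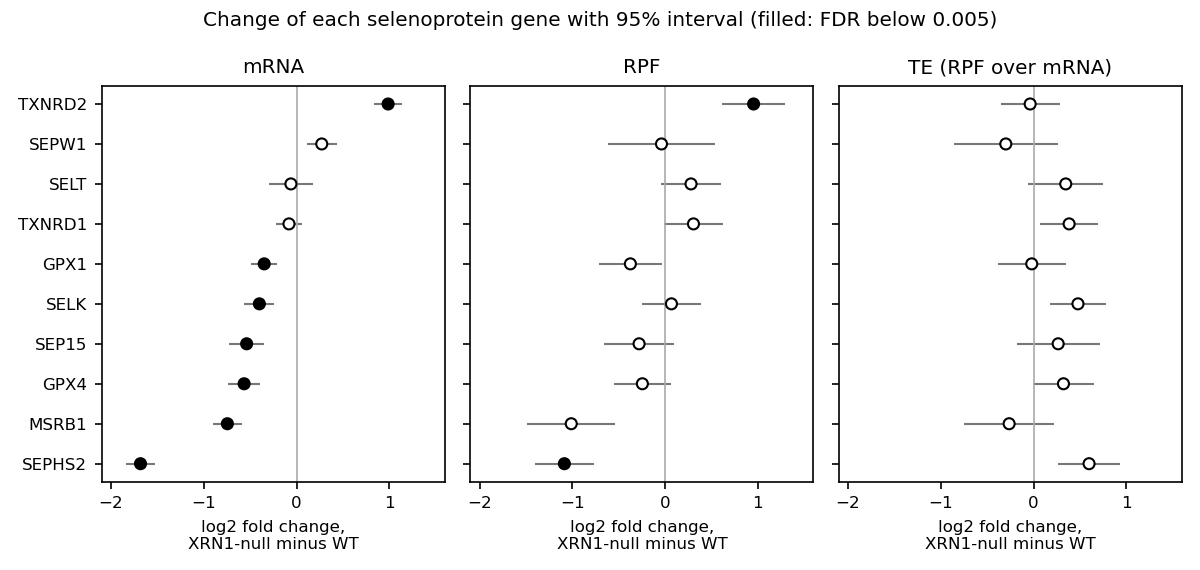
Log2 fold change, XRN1-null minus WT, of each of the 10 genes (rows, ordered by mRNA change) in mRNA, RPF and TE, the ratio of RPF to mRNA, with 95% intervals from the edgeR fit of 2 against 2 libraries per assay. Filled points passed an FDR of 0.005: 7 for mRNA, 2 for RPF and 0 for TE.

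Occupancy moved less clearly than mRNA. By the RPF test 1 member was higher (TXNRD2) and 1 lower (SEPHS2), against 0.633% and 1.14% of all genes (1.77% in either direction), with a median log2 fold change of -0.14 over the members and -0.0033 over all genes. The RPF values of the genotypes did not overlap for 7 members, 3 higher and 4 lower, where 32.1% and 32.3% of all genes did so. Calls over all genes went from 64 higher and 115 lower to 588 and 707 without WT Ribo-Seq replicate 1 and to 1282 and 1087 without WT Ribo-Seq replicate 2, and RPF calls gained in those fits, given below, are to be read against these counts. Translational efficiency (TE) is RPF relative to mRNA, and its change between genotypes was tested as an interaction over the 8 libraries. No member passed in either direction, where 0.0495% of all genes had a higher and 1.78% a lower TE by edgeR (1.83% in either direction). At an unadjusted p under 0.05 there were 3 members, SEPHS2, SELK and TXNRD1, all with a higher TE in null cells, where 8.76% of all genes were higher by that measure. DESeq2 called 1 member higher, SEPHS2, and 0.663% of all genes. The members' median TE change was 0.29 on the log2 scale and that of all genes 0.0081. Of the lists described below, the median was -0.018 over 9 other selenoprotein genes and -0.11 over 13 genes of selenocysteine synthesis and insertion. It was 0.33 over 5 cysteine-containing relatives and 0.17 over 23 thioredoxin and glutathione partners. TE was higher in both null replicates than in both WT replicates for 6 members and lower in both for 0, against 28.8% and 27.8% of all genes.

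**Figure D2:**
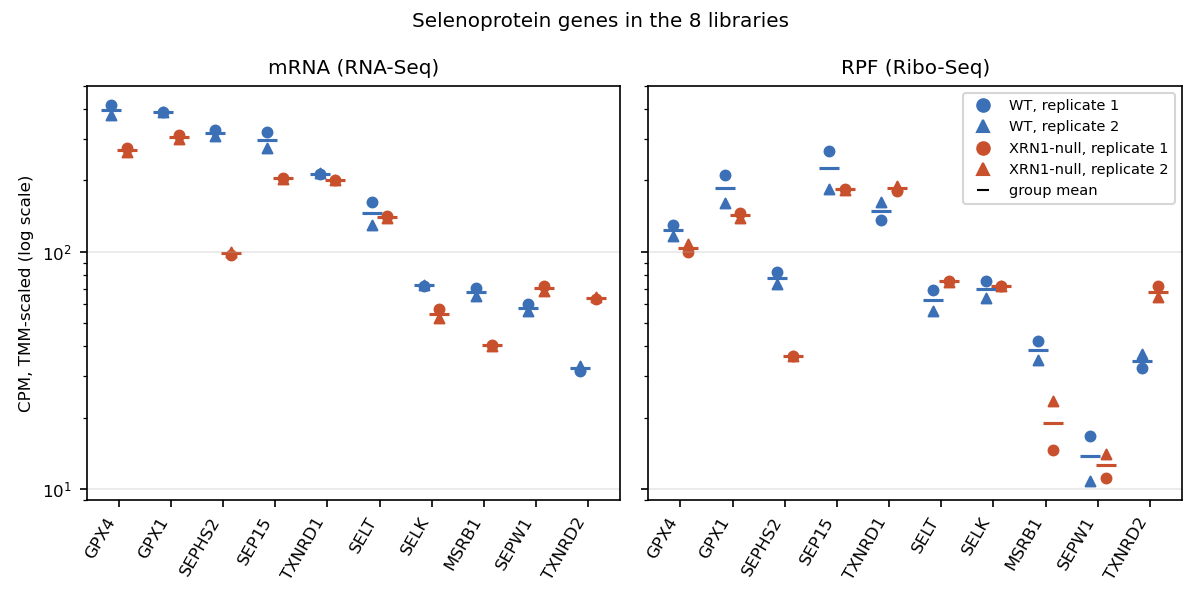
CPM on a log scale of the 10 genes in each of the 8 libraries, mRNA on the left and RPF on the right, with WT in blue, XRN1-null in orange, replicates as separate symbols and group means as bars. The SEPHS2 mRNA values fall from above 300 CPM to about 100 CPM, and the order of WT and null is opposite for TXNRD2.

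SEPHS2 makes selenophosphate, the selenium donor for selenocysteine, and is itself a selenoprotein. The gene lies on the minus strand of chromosome 16 at chr16:30454952-30457195, with its selenocysteine codon at chr16:30456869-30456871. Its mRNA measured 326.3 and 308.1 CPM in the WT replicates and 97.4 and 100.3 CPM in the null replicates. The genotypes were far apart relative to their spread, and the mRNA was 3.21-fold lower in null cells (log2 fold change -1.68, SE 0.0662, edgeR FDR 3.63e-06). It ranked 20th from the lowest among the 10105 genes. RPFs measured 82.3 and 73.5 CPM in WT and 36.3 and 36.5 CPM in null cells, from 117 to 320 counts a library. They also fell, but by less, 2.12-fold (log2 fold change -1.09, SE 0.147, edgeR FDR 0.00195). Leaving out XRN1-null Ribo-Seq replicate 1 moved this FDR to 0.0062. The ratio of RPF to mRNA was 0.252 and 0.239 in WT and 0.372 and 0.364 in null cells, separate, but the change missed the FDR limit of 0.005 (TE log2 change 0.60, 95% interval 0.27 to 0.93, edgeR FDR 0.0334). With DESeq2 the same change had an FDR of 0.00472. A processed pseudogene of SEPHS2 is annotated and has no row in the table, so reads could be shared with it.

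GPX1 and GPX4 are glutathione peroxidases. GPX1 reduces hydrogen peroxide in the cytosol and mitochondria, and GPX4 reduces lipid hydroperoxides within membranes and restrains ferroptosis. GPX1 (chr3:49394607-49396038, minus strand; codon at chr3:49395565-49395567 in exon 1 of 2) had 388.9 and 388.1 CPM of mRNA in WT and 310.2 and 299.8 CPM in null cells. GPX4 (chr19:1103981-1106790, plus strand; codon at chr19:1105402-1105404 in exon 3 of 7) had 416.8 and 376.4 CPM in WT and 273.3 and 262.8 CPM in null cells. Neither pair of groups overlapped. GPX4 mRNA fell 1.48-fold (log2 fold change -0.57, SE 0.0723, edgeR FDR 0.000353) and GPX1 mRNA 1.27-fold (log2 fold change -0.35, SE 0.0608, edgeR FDR 0.0016), and both calls were lost when a null library was left out, as given above. For RPFs, GPX1 had 211.5 and 161.3 CPM in WT and 146.3 and 138.9 CPM in null cells, and GPX4 130.2 and 116.7 CPM against 99.8 and 107.7 CPM. The WT libraries were the higher ones in both genes, without a call (edgeR FDR 0.122 for GPX1 and 0.245 for GPX4). GPX1 TE differed little between genotypes (log2 change -0.02, 95% interval -0.39 to 0.35), and that of GPX4 was 0.32 (interval -0.0036 to 0.65). GPX1 exons are shared on the same strand with an annotated readthrough gene that has no row, and 2 GPX1 pseudogenes are annotated.

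TXNRD1 and TXNRD2 are the thioredoxin reductases of the cytosol and of mitochondria, which keep thioredoxin reduced with NADPH. Both carry selenocysteine as the residue before the last, and their mRNAs took different courses. TXNRD2 (chr22:19863040-19929343, minus strand; codon at chr22:19864634-19864636 in exon 17 of 18) rose from 31.6 and 33.0 CPM in WT to 63.5 and 64.6 CPM in null cells. That was 1.98-fold (log2 fold change 0.99, SE 0.0645, edgeR FDR 1.99e-05), above 94.5% of all genes. Its RPFs rose alike, from 32.3 and 36.98 CPM to 71.8 and 64.3 CPM, or 1.94-fold (log2 fold change 0.95, SE 0.154, edgeR FDR 0.00378). Without XRN1-null Ribo-Seq replicate 1 the FDR of the RPF change was 0.0170. TE stayed close to 1 in both genotypes, at 1.07 and 1.06, with a log2 change of -0.04 (95% interval -0.35 to 0.28).

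TXNRD1 (chr12:104609557-104744085, plus strand; codon at chr12:104742191-104742193) had 212.3 and 214.5 CPM of mRNA in WT and 201.6 CPM in each null library. The groups were separate, yet the difference was small and did not pass (log2 fold change -0.08, 95% interval -0.22 to 0.06, edgeR FDR 0.256). RPFs were 136.0 and 161.5 CPM in WT and 180.0 and 190.1 CPM in null cells. Both null libraries were above both WT libraries, again without a call (log2 fold change 0.31, edgeR FDR 0.163), but without WT Ribo-Seq replicate 2, with 1 WT library set against the null pair, it passed at an FDR of 0.000713. The TE change was 0.38 (95% interval 0.07 to 0.70, edgeR FDR 0.134).

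MSRB1 reduces methionine-R-sulphoxide in proteins in the cytosol and nucleus. The gene lies at chr16:1988230-1993200 on the minus strand, and its codon at chr16:1990813-1990815 in exon 3 of 4, codon 95 of 116. MSRB1 mRNA measured 70.1 and 65.4 CPM in WT and 40.7 and 40.1 CPM in null cells, with no overlap. It fell 1.68-fold (log2 fold change -0.75, SE 0.0665, edgeR FDR 6.99e-05), the next largest decrease after SEPHS2. Its RPFs were 42.2 and 34.9 CPM in WT and 14.7 and 23.4 CPM in null cells, on 59 to 152 counts a library. Both null libraries were lower, by 2.02-fold on average, and the change fell short of the threshold (log2 fold change -1.01, SE 0.217, edgeR FDR 0.0117). Over the fits that left out 1 library the RPF log2 fold change was -1.37 to -0.69. The TE change was -0.26 with a wide interval (-0.75 to 0.22). An MSRB1 pseudogene is annotated and had no row.

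SEP15, SELK and SELT are proteins of the endoplasmic reticulum. SEP15 is a thioredoxin-like protein that binds the glycoprotein folding sensor UGGT, SELK is a small membrane protein linked to protein palmitoylation, and SELT is a membrane-anchored thioredoxin-like oxidoreductase. SEP15 (chr1:87328128-87380107, minus strand; codon at chr1:87346373-87346375) had 319.1 and 274.7 CPM of mRNA in WT and 205.4 and 203.5 CPM in null cells, and SELK (chr3:53918444-53925912, minus strand; codon at chr3:53919858-53919860) 72.1 and 72.7 CPM against 57.2 and 52.4 CPM. Neither gene's groups overlapped, and both mRNAs fell, 1.45-fold for SEP15 (log2 fold change -0.54, SE 0.0823, edgeR FDR 0.000849) and 1.32-fold for SELK (log2 fold change -0.40, SE 0.0687, edgeR FDR 0.00148), with the dependence on the null libraries given above. When the RNA-Seq counts were thinned to the Ribo-Seq totals SELK was no longer called (FDR 0.0179). SELT (chr3:150320662-150348223, plus strand; codon at chr3:150340179-150340181) had 162.3 and 130.3 CPM in WT, on either side of the 141.3 and 139.2 CPM in null cells. Its difference was within the WT spread (log2 fold change -0.06, 95% interval -0.30 to 0.18), and leaving out 1 library at a time gave -0.21 to 0.13. It was called lower without WT RNA-Seq replicate 2 (FDR 0.00018), a fit in which 1 WT library is set against the close null pair.

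No RPF change of these 3 genes passed the test. SEP15 RPFs were 266.2 and 183.5 CPM in WT and 184.0 and 182.9 CPM in null cells, so the higher mean in WT came from replicate 1 (edgeR FDR 0.280). Without WT Ribo-Seq replicate 2 the SEP15 decrease passed the threshold, as did that of GPX1. SELK RPFs were 75.0 and 63.9 CPM in WT and 72.0 and 71.8 CPM in null cells, which lie between the WT values (log2 fold change 0.07, 95% interval -0.25 to 0.38). SELT RPFs were 69.3 and 56.5 CPM in WT and 75.5 and 74.6 CPM in null cells, with both null libraries higher (log2 fold change 0.28, edgeR FDR 0.212). The TE changes were 0.48 for SELK (95% interval 0.17 to 0.78, unadjusted p = 0.00507, edgeR FDR 0.0590), 0.35 for SELT (edgeR FDR 0.290) and 0.27 for SEP15 (edgeR FDR 0.475). Over the fits without 1 library they were 0.35 to 0.58 for SELK, 0.16 to 0.50 for SELT and 0.014 to 0.54 for SEP15. SELT exons overlap those of SERP1 on the opposite strand, whose mRNA had a log2 fold change of -0.45, and 2 pseudogenes are annotated for SELT and 3 for SELK.

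SEPW1, a small thioredoxin-like protein of the cytosol, lies at chr19:48281934-48287943 on the plus strand, with its codon at chr19:48283989-48283991, and has an annotated pseudogene. Its mRNA measured 60.2 and 56.2 CPM in WT and 72.0 and 68.5 CPM in null cells. The null libraries were both higher, by 0.27 on the log2 scale (SE 0.0683), and the edgeR FDR was 0.0091. The call was gained when either WT RNA-Seq library was left out. RPFs were the fewest of the 10 genes, 32 to 47 counts a library, at 16.7 and 10.8 CPM in WT and 11.2 and 14.0 CPM in null cells. The genotypes overlapped, and the RPF log2 fold change was -0.039, with a 95% interval of -0.62 to 0.54.

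**Figure D3:**
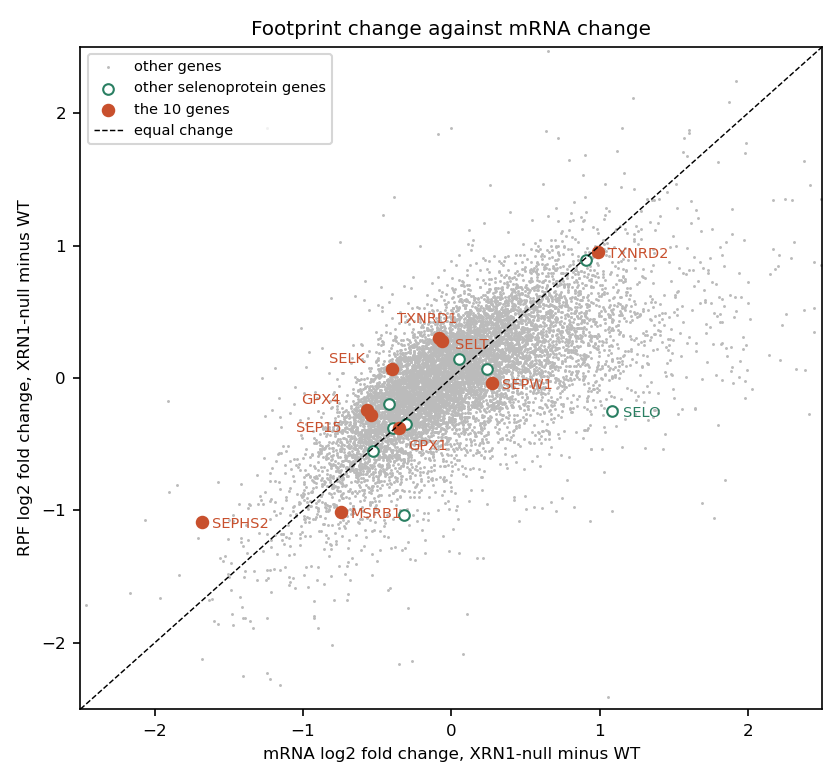
RPF log2 fold change (y axis) against mRNA log2 fold change (x axis), XRN1-null minus WT, for all genes (grey), the 10 genes (orange) and 9 other selenoprotein genes (open green), with the line of equal change and 53 genes beyond the axes. TXNRD2 lies on the line, SEPHS2 lies above it at -1.68 and -1.09, and SELO lies well below it.

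Compared per kilobase of the gene width in the table, the 10 mRNAs spanned a wide range of levels in WT cells. GPX1 and GPX4 were the most abundant at 328 and 322 CPM per kilobase, above 98.2% and 98.1% of all genes, and their replicate ranges overlapped. SEP15 followed at 161, SEPHS2 at 135, SELK at 88.5, SEPW1 at 66.1 and MSRB1 at 49.5 CPM per kilobase. TXNRD1 at 46.3 and SELT at 41.9 overlapped, and TXNRD2 was the least abundant at 10.6 CPM per kilobase. In null cells no neighbours in the order overlapped. SEPHS2, at 42.0 CPM per kilobase, had moved below SEPW1 (79.8), SELK (67.0) and TXNRD1 (43.7), and TXNRD2 was still the lowest at 20.9. The share of all RNA-Seq counts that the 10 genes held was 0.204% and 0.187% in WT and 0.149% and 0.146% in null cells. SEPHS2 accounted for part of that difference, since the summed CPM without it was 1733 and 1611 in WT and 1365 and 1333 in null cells.

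The ratio of RPFs to mRNA differed widely among the 10 genes. In WT cells 8 of 10 were in the lower 50% of all genes by TE, the ratio of RPF CPM to RNA-Seq CPM. SEPW1 (0.236), SEPHS2 (0.246) and GPX4 (0.311) were lowest, where the median of all genes was 0.820, and TXNRD2 (1.07) and SELK (0.959) were above it. This ratio depends on how much of an mRNA is coding, because footprints come from the reading frame and RNA-Seq reads from the whole transcript. With RPFs taken per coding base and mRNA per base of gene width, 5 of 10 genes were below the median of 1.78 over 9776 genes. SEPHS2 was then lowest at 0.430, followed by GPX4 at 0.648, SEPW1 at 0.796, GPX1 at 0.932 and TXNRD1 at 1.65. TXNRD2 (2.09), MSRB1 (2.24), SELT (2.56), SELK (2.78) and SEP15 (2.82) were above the median.

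**Figure D4:**
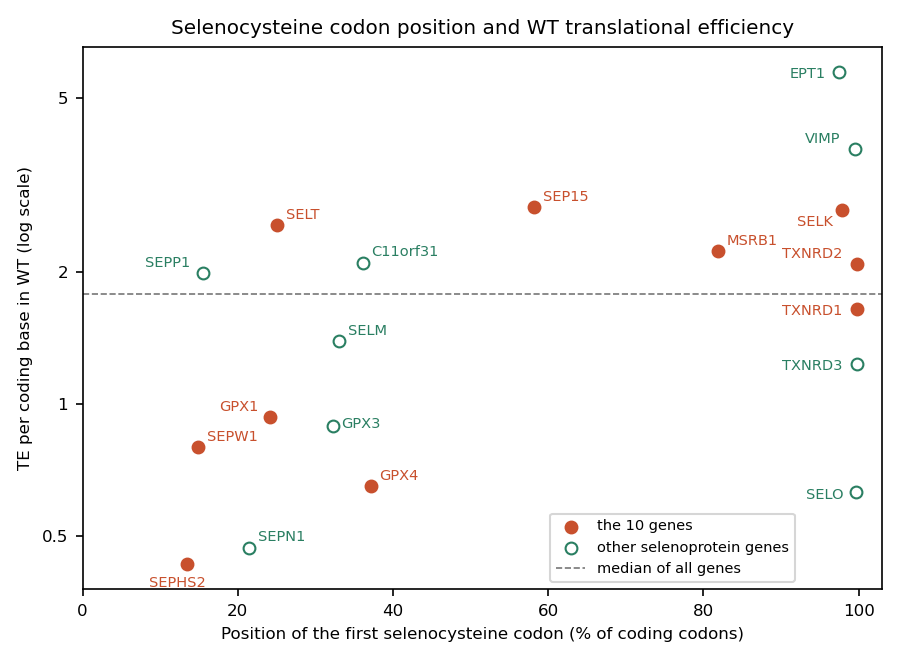
WT translational efficiency per coding base (y axis, log scale, mean of 2 replicates) against the position of the first selenocysteine codon in the reading frame (x axis, % of codons) for the 10 genes (orange) and 9 other selenoprotein genes (open green), with the median of all genes dashed. Among the 10 genes SEPHS2, SEPW1, GPX1 and GPX4 lie at the lower left, and SELT lies above the line in spite of an early codon.

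These values were next set against the position of the codon. The 5 members with the codon before 50% of the frame ranged from 0.430 to 2.56, with a median of 0.796, and the 5 with a later codon from 1.65 to 2.82, with a median of 2.24. The ranges overlap through SELT. Over 19 selenoprotein genes the 10 with an early codon ranged from 0.430 to 2.56, with a median of 0.910. The 9 with a late one ranged from 0.628, in SELO, to 5.75, with a median of 2.24. SEPN1 has 2 selenocysteine codons and SEPP1 has 10, and both genes were placed by the first. The second codon of SEPN1 lies at 78.3% of the frame. Spearman's rho was 0.535 over the 10 genes and 0.408 over 19 selenoprotein genes, as a description across genes that share the same libraries and differ in length and base composition. With null values it was 0.644 and 0.318. The deposited counts are sums per gene and do not separate footprints upstream of the codon from those downstream. The mRNA change had a weaker relation to the codon's position, with rho of 0.255 over the 10 genes and 0.195 over the 19.

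The distance from the codon to the last exon junction is the feature used to predict nonsense-mediated decay, with a limit of about 55 bases. Of the 10 genes, 6 have the codon further upstream than that (GPX1, GPX4, SEPW1, SELT, SEP15 and TXNRD2). Their mRNA changes ran from -0.57 to 0.99 on the log2 scale, with a median of -0.20. By the mRNA test 3 were lower and 1 higher, against 23.2% and 22.9% of all genes. The higher one was TXNRD2, whose annotated stop codon itself lies 65 bases upstream of the last junction, so its place in this class does not separate the UGA from the normal stop. SELK and MSRB1 have it nearer to the junction, at 5 and 34 bases, and both fell. SEPHS2, with no junction, had the largest decrease of the 10, and TXNRD1, with the codon in the last exon, was not called. Over 19 selenoprotein genes, the 11 with the first codon more than 55 bases upstream had a median of -0.35. The 5 with it in the last exon had a median of -0.08, with overlapping ranges. With so few genes in a class no test was made.

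Of 15 other human selenoprotein genes looked for, 9 had a row. By the mRNA test 2 of the 9 were higher and 4 lower, against 22.9% and 23.2% of all genes, and 3 did not pass, with a median log2 fold change of -0.30. Those 3 were GPX3, an extracellular glutathione peroxidase (0.05), EPT1, a phospholipid-synthesising enzyme (0.24), and TXNRD3 (-0.32). EPT1 was called higher without WT RNA-Seq replicate 2. The higher ones were SELO, a mitochondrial pseudokinase-fold protein, and SEPP1, a secreted selenium carrier, with log2 fold changes of 1.09 and 0.91 (edgeR FDR 1.80e-05 and 0.000979). The lower ones were SELM at -0.52, C11orf31 (SELENOH) at -0.42, SEPN1 at -0.39 and VIMP at -0.30. Leaving out either null RNA-Seq library removed the calls of C11orf31, SEPN1 and VIMP, whose log2 fold changes over the fits without 1 library stayed at -0.44 to -0.38, -0.46 to -0.30 and -0.33 to -0.26. No RPF or TE change of the 9 passed in the fit of all libraries. Lower RPF calls numbered 2 without WT Ribo-Seq replicate 2, and 1 without WT Ribo-Seq replicate 1 or without XRN1-null Ribo-Seq replicate 1. TXNRD3, the third thioredoxin reductase, had 14.6 and 15.2 CPM of RPFs in WT and 9.44 and 4.68 CPM in null cells (log2 fold change -1.03, edgeR FDR 0.0379), and its FDR was 0.00444 without WT Ribo-Seq replicate 1 and 0.00459 without XRN1-null Ribo-Seq replicate 1. Without 1 library at a time its RPF change was -1.67 to -0.66, with an FDR of up to 0.244. Its TE change was -0.71 (edgeR FDR 0.193), and -1.36 to -0.35 without 1 library. SELO mRNA rose from 26.2 and 28.1 CPM to 57.2 and 58.1 CPM while its RPFs were 10.9 and 18.6 CPM in WT and 14.9 and 11.5 CPM in null cells, a TE change of -1.35 that narrowly missed the threshold (edgeR FDR 0.00827) and passed in DESeq2, the likelihood ratio test, with TMM over all libraries (FDR 0.00448) and without WT Ribo-Seq replicate 1. Without WT Ribo-Seq replicate 2 it was -0.78 (FDR 0.178). No test compared SELO with TXNRD2, whose RPFs rose with its mRNA.

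Of 14 genes for proteins that make and insert selenocysteine 13 had a row, of which 3 mRNAs were higher and 1 was lower, against 22.9% and 23.2% of all genes, with a median log2 fold change of 0.18. TRIT1, which modifies the anticodon loop of several tRNAs, rose by 1.65 (edgeR FDR 8.35e-06), TRNAU1AP, a protein associated with the selenocysteine tRNA, by 0.85 (FDR 4.07e-05), and SCLY, a selenocysteine lyase, by 0.40 (FDR 0.00124). RPL30, a ribosomal protein that also binds the stem-loop and has many pseudogenes, fell by 0.58 (log2 scale, FDR 0.000177). The call of SCLY was lost without either null RNA-Seq library and that of RPL30 without XRN1-null replicate 1. Over the fits without 1 library the log2 fold changes were 0.35 to 0.44 for SCLY and -0.63 to -0.51 for RPL30. Without WT RNA-Seq replicate 1 the list had 3 higher and 3 lower calls (3195 and 3114 over all genes), and without WT RNA-Seq replicate 2 it had 6 and 2 (3410 and 3389 over all genes). No RPF change of the 13 passed in the fit of all libraries, whereas 3 higher and 1 lower were called without WT Ribo-Seq replicate 2, and 1 in each direction without WT Ribo-Seq replicate 1. TRIT1 was the 1 gene among them called for TE, with mRNA of 27.6 and 25.3 CPM in WT against 88.0 and 78.3 CPM in null cells, RPFs of 17.7 and 19.5 CPM against 19.9 and 25.9 CPM, and a TE change of -1.39 (edgeR FDR 0.0027). That call was lost without WT RNA-Seq replicate 2 (FDR 0.00732), XRN1-null RNA-Seq replicate 1 (0.0104), WT Ribo-Seq replicate 2 (0.0380), XRN1-null Ribo-Seq replicate 1 (0.0353) or XRN1-null Ribo-Seq replicate 2 (0.0111). In the fits without 1 library the change was -1.58 to -1.20, and in the 5 in which the call was lost the lower TE calls over all genes numbered 143, 69, 95, 19 and 46 in that order, against 180.

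Partners of these enzymes in thioredoxin and glutathione metabolism and related stress genes made a list of 23, all with a row. By the mRNA test 11 were lower and 3 higher, against 23.2% and 22.9% of all genes, with a median log2 fold change of -0.33. Among the lower ones were HMOX1, which degrades haem (-0.73, edgeR FDR 0.000257), the peroxiredoxin PRDX4 (-0.67, FDR 0.000138) and thioredoxin itself, TXN (-0.56, FDR 0.000472). The call of TXN was lost without either null RNA-Seq library, and of the 11 lower calls 2 were left without replicate 1 and 3 without replicate 2. The log2 fold change of TXN over the fits without 1 library was -0.65 to -0.45, and lower calls over all genes dropped as given above. Among the higher ones were TXNIP, which binds and inhibits thioredoxin (1.16, FDR 3.3e-05), and the cystine transporter subunit SLC7A11 (0.54). TXNIP was the 1 gene of the list with an RPF call, at 1.55 (edgeR FDR 0.00182), and none was called for TE. Without WT Ribo-Seq replicate 2 the list had 2 higher and 5 lower RPF calls, and without WT Ribo-Seq replicate 1 it had 2 and 3. Of 7 related enzymes that use cysteine in place of selenocysteine, 5 had a row. By the mRNA test MSRB2 (-0.57), GPX8 (-0.42) and GSR (-0.32) were lower and MSRB3 (0.39) was higher, against 23.2% and 22.9% of all genes. These calls were lost without XRN1-null RNA-Seq replicate 2, and for GPX8, GSR and MSRB3 also without replicate 1. Over the fits without 1 library the log2 fold changes were -0.70 to -0.46 for MSRB2 and -0.49 to -0.34 for GPX8. For GSR they were -0.34 to -0.29 and for MSRB3 0.35 to 0.43. No RPF or TE change of these 5 passed, and 1 lower RPF call appeared without WT Ribo-Seq replicate 2 or without XRN1-null Ribo-Seq replicate 1.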

How the data were processed

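The authors deposited 1 table of raw read counts per gene for the 8 libraries, with 2 biological replicates per genotype and assay. Per the labels and the study's methods, reads matching rRNA were removed with Bowtie2, the rest were aligned to hg19 with Tophat2, footprints of the lengths that showed codon periodicity were kept, and reads were counted with QuasR for genes above an expression limit. Strandedness of counting and the treatment of reads with several matches are not given in the sources used here, so reads of genes that overlap on opposite strands cannot be told apart. Some results are not reported here. The authors' tables of fold changes, p-values and TE ratios were not used.

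Counts were tested with edgeR 4.0.16 (quasi-likelihood, TMM factors within each assay, R 4.3.3) over all 10105 genes, each assay fitted on its 4 libraries and TE as the genotype by assay interaction over 8. A gene was called at a Benjamini-Hochberg FDR below 0.005, the threshold the study states for mRNA, used here for RPF and TE too. The study's TE program, RiboDiff, was not run. CPM values are counts relative to TMM-scaled library totals, and CPM per kilobase divides by the gene width in the table. Depth was 33757487 to 38145433 counts for RNA-Seq and 1921641 to 4399542 for Ribo-Seq, and counts without molecular identifiers can include PCR duplicates. Selenocysteine codons were taken from their annotated positions in GENCODE 44 on GRCh37, and the bases there were checked to read TGA. Scripts were tested on simulated data, and the alternatives were DESeq2 1.42.0, other scaling, a minimum of 10 counts, a likelihood ratio test, an FDR of 0.05, thinned counts, a replicate block and leaving out each library. The members and companion lists were chosen with earlier results of these data known. Named were the members, XRN1, the 9 other selenoprotein genes with a row, and from each companion list at most 4 called genes per test, those with the largest change first. SERP1 and SLC7A11 fall outside this rule and were chosen after their values were seen.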

Additional observations from a re-analysis of the deposited data

How the results depend on the processing

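Among the 10 selenoprotein genes, SEPHS2, MSRB1 and TXNRD2 kept their mRNA calls in the 12 alternatives run. After RNA-Seq counts were thinned to Ribo-Seq depth, 1808 genes were still called higher and 1546 lower, against 64 and 115 by RPF. The mRNA count of 1 higher member became 2, by adding SEPW1, with library totals as scaling or the likelihood ratio test. It did so too with a replicate block or an FDR of 0.05. Over all genes the higher mRNA calls in these settings were 2664, 2921, 2858 and 3319 in that order, against 2313. The RPF count of 1 lower member became 2, by adding MSRB1, with the likelihood ratio test, the block or an FDR of 0.05. Over all genes the lower RPF calls were then 596, 665 and 847, against 115. The TE count of 0 higher members became 1, SEPHS2, with DESeq2 or an FDR of 0.05. Leaving out 1 library at a time gave 1 to 2 higher and 2 to 7 lower members for mRNA, 0 to 2 higher and 0 to 4 lower for RPF, and 0 for TE, while over all genes lower calls ran from 1097 to 3389 for mRNA and from 72 to 1087 for RPF. The TE changes of GPX1 and TXNRD2, near 0, turned positive in DESeq2, at 0.0084 and 0.0013, as did TXNRD3 mRNA in thinned counts, at 0.047. Leaving out 1 library also changed the sign of small changes, with ranges of -0.21 to 0.13 for SELT mRNA, -0.039 to 0.17 for GPX3 mRNA, -0.41 to 0.21 for SEPW1 RPF, -0.52 to 0.0045 for SEP15 RPF, -0.049 to 0.18 for SELK RPF, -0.47 to 0.30 for SELO RPF, -0.21 to 0.18 for GPX1 TE, -0.12 to 0.11 for TXNRD2 TE and -0.61 to 0.066 for MSRB1 TE. Apart from the smaller samples, the causes of these shifts were not tested.

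Replicate numbers are shared by the groups, but with 2 numbers nothing in the labels shows that they pair cultures. Across genes, WT and null libraries that share a number departed from their group means with a correlation of 0.190 in RNA-Seq and 0.0803 in Ribo-Seq. The difference between replicates 1 and 2 correlated between RNA-Seq and Ribo-Seq at 0.355 in WT and 0.0326 in null cells. In the fit with the replicate block SEPW1 mRNA had an edgeR FDR of 0.00311 and MSRB1 RPF of 1.16e-05, and no TE change of a member was called (SEPHS2 FDR 0.0484, or 0.00791 with the culture as the block). The block also gave lower RPF calls for 1 other selenoprotein gene, 1 gene of selenocysteine synthesis (and 1 higher), 1 cysteine-containing relative and 3 thioredoxin and glutathione partners, where there were 0 lower without it, and over all genes it gave 616 higher and 665 lower RPF calls. With the culture as the block the lower TE of SELO passed (FDR 0.0015), among 435 lower TE calls over all genes.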
